A study of Mus musculus with 4 samples.

Results

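Transcripts of actin and of the proteins that bind it were read in the axons and the cell bodies of sensory neurons, with and without electrical stimulation. Members were chosen by gene symbol alone: the actins, actin-related proteins, Arp2/3 subunits, cofilins, profilins, thymosins, capping proteins, tropomyosins, WASP family proteins, coronins, filamins, actinins, gelsolin and LIMA1. The rule took 69 spots for 39 genes, out of 8496 spots that name 1 gene (6284 genes) among the 9600 spots of the array. Of these, 66 spots for 37 genes are actin proteins. The other 3 spots belong to CFLAR and TPMT, whose symbols match the rule although neither is an actin protein. Filamins, gelsolin, WASL, WASF1, ACTR2, ACTR3, ARPC1A, ARPC3, ARPC5, TPM3 and CORO1A have no spot that names them alone.

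Dorsal root ganglion (DRG) neurons of NIH Swiss mice were taken at embryonic day 13.5 and grown for 3 weeks in chambers that separate axons from cell bodies. The 4 groups were stimulated axons (2 hours of stimulation), unstimulated axons, stimulated cell bodies (2 hours) and unstimulated cell bodies. Each group was 1 pool of 3 coverslips on 1 nylon array, so no difference below has a replicate check and none carries a p-value. By the study's methods all cultures received nerve growth factor and drugs against dividing cells, and were kept overnight in medium without serum or growth factor before stimulation. RNA was amplified before labelling, and the spots are complementary DNA (cDNA) clones whose symbols are those of human genes.

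Actin exists as monomers and as filaments that grow and shrink at their ends. Profilins feed monomers to growing ends, thymosins hold monomers back, the Arp2/3 complex starts branches, cofilins sever filaments and capping proteins stop growth. In axons this turnover drives the growth cone, and beta-actin messenger RNA is a classic example of a transcript that is carried into axons and translated there.

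Values are spot intensities in arbitrary units, given below in the order stimulated axons, unstimulated axons, stimulated cell bodies, unstimulated cell bodies. Each array's log10 intensities were turned into z-scores over all its spots, and the z ratio of a spot is its z-score on the first array minus that on the second, scaled so that such differences have an SD of 1 over the array. A spot was past the threshold where the z ratio reached 1.4 in either direction, the limit in the study's methods. Fold values are separate: they come from log2 intensities after each array was centred on its median. Array medians were 102.5, 89.3, 118.1 and 159.6. Before centring, the median log2 ratio over spots was 0.26 for stimulated against unstimulated axons and -0.24 for cell bodies. For axons against cell bodies it was -0.72 without and -0.12 with stimulation. After centring, these 4 medians were 0.06, 0.19, 0.12 and 0.08, so the fold values still hold a small shift upwards, largest in cell bodies. Spots without a gene name at 2 fixed places in each row of 50 (384 in all) served as blanks, and their 95th percentiles were 42.5, 21.9, 10 and 10. A value of exactly 10 recurred on 63 to 361 spots of an array and was taken as a fill-in, so a ratio against it has no exact size. Different clones of the same gene had z ratios that spread by an SD of 0.715 to 0.887 in the 4 comparisons (1488 genes with several spots), which is the only repeat measurement here and is technical. Of 14 sensory neuron markers 6 were measured, with a median of 102.8, 89.3, 168 and 192.1 for the brightest spot of each, and 2 or 3 of the 6 were above the array mean. Peripherin, CALCA and ISL1 were among those not named on the array. For Schwann cells 5 of 8 markers were measured (medians 162.9, 110.8, 124.7 and 180.2), for fibroblasts 2 of 7 (59.8, 48.1, 89 and 121), for macrophages 4 of 5 (131.8, 108.8, 126.8 and 151.3) and for endothelium 0 of 4. Their part in the results was not tested. In such bulk RNA, fewer cells of a type and less RNA per cell cannot be told apart.

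The members were of ordinary brightness. Their median intensity was 98.4, 98.5, 123.3 and 181.7, against 107.7, 94.3, 126.6 and 169.2 for all named spots. On the 4 arrays 60, 65, 67 and 69 of the 69 spots were above the blanks' 95th percentile, and 65 of the 69 were above 10 on every array. Spots of ACTB, ARPC2, TMSB10 and TPM2 were among the brightest 480 spots on all 4 arrays, 5.8% of the members against 4.61% of named spots.

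In stimulated against unstimulated axons, 7 member spots were lower (10.1%) and 1 was higher (1.45%). Over all 8496 named spots 5.6% were lower and 3.34% higher. The 7 were both spots of TMSB4X, the dimmer spot of TMSB10, both spots of TPMT and 1 spot each of ARPC1B and ACTR3B. Without TMSB4X and TMSB10 there were 5 spots past the threshold in place of 8. Robust z-scores gave 7 lower and 4 higher, and quantile and loess normalization 7 lower and 0 higher. The share over all named spots was not counted under other scalings, here or below, so such counts have no background. In stimulated against unstimulated cell bodies, 4 member spots were lower (5.8%, background 3.39%) and 0 were higher (background 1.49%). These were spots of TMSB4X, PFN2, CAPZA2 and CORO2A, 3 of them next to a brighter spot. The split depended on the processing: it was 6 lower and 7 higher over spots above 10 on both arrays, 8 and 6 after a normexp correction of background, and 3 and 2 with robust z-scores or quantile normalization.

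Between compartments without stimulation, axons were lower for 4 member spots (5.8%, background 3.41%) and higher for 1 (1.45%, background 3.6%). Centred log2 ratios past 1 gave 6 lower and 6 higher here, and robust z-scores 4 lower and 3 higher. After stimulation they were lower for 11 (15.9%, background 5.74%) and higher for 2 (2.9%, background 2.92%). With robust z-scores this turned to 4 lower and 10 higher, and with 1 value per gene there were 3 of each, again without a background over all named spots. Of these 11 spots, 4 belong to ACTG1 and 3 to the thymosins. Over the 39 genes as a whole, the medians lay near 0. They were -0.02 for the axon arrays, 0.03 for the cell body arrays, -0.07 between unstimulated compartments and -0.05 between stimulated ones, and over all named genes they were 0.02, 0.05, -0.06 and -0.04. Each array enters 2 of the 4 comparisons, so their counts are not independent.

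**Figure D1:**
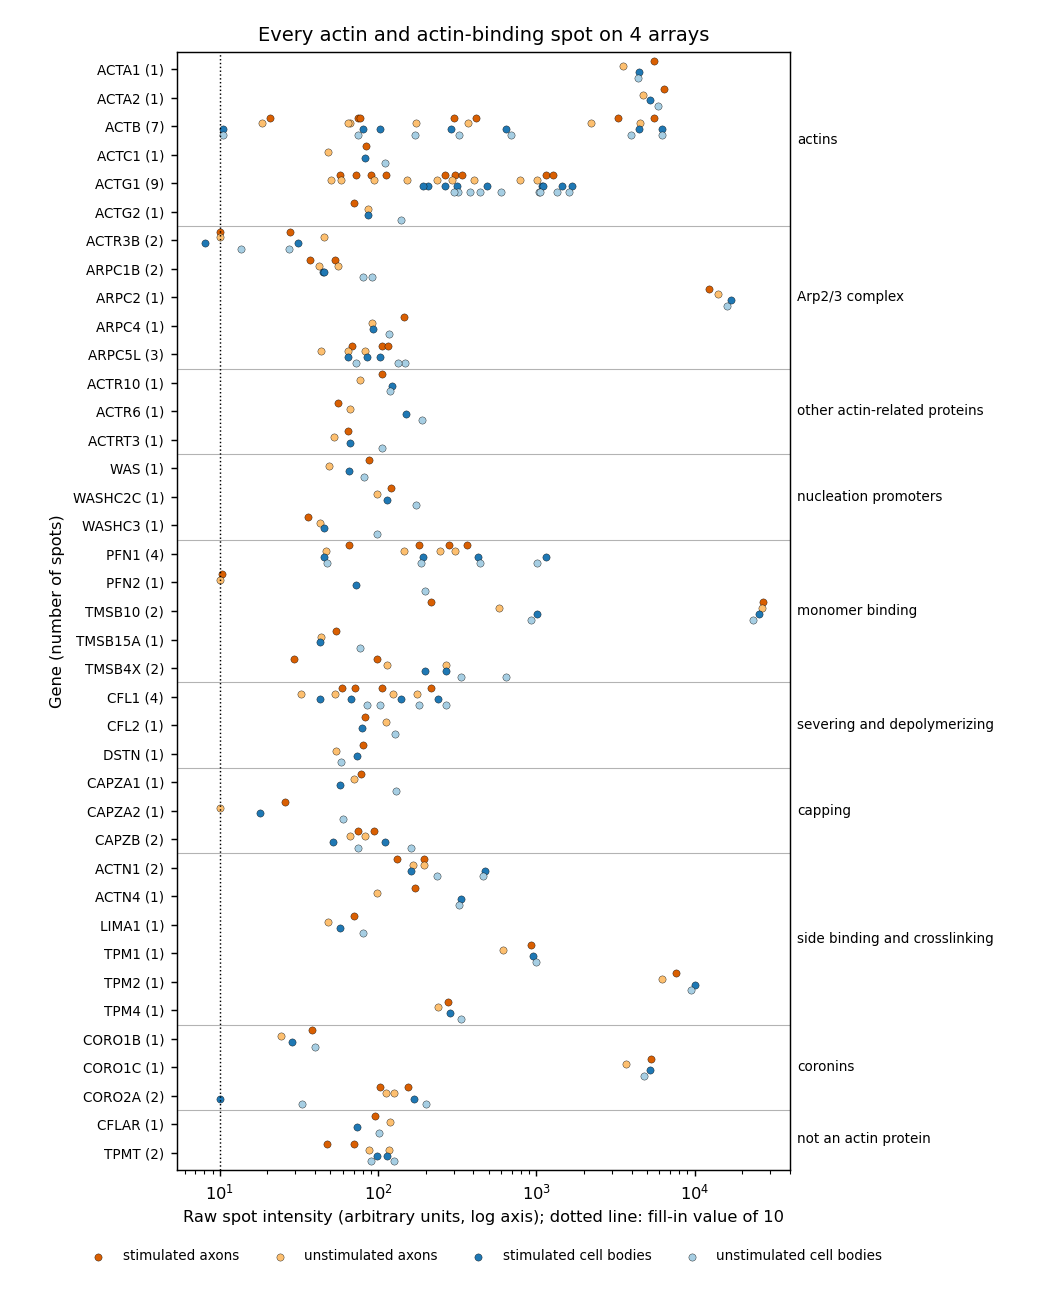
Raw intensity of each of the 69 spots (arbitrary units, log axis) by gene, grouped by role, with 1 point per spot and array and no error bars because each group is 1 array. The brightest spots are those of TMSB10 and ARPC2, and the 7 ACTB spots span from 10.5 to 6259 in stimulated cell bodies.

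The monomer-binding proteins held the members with the lowest z ratios in stimulated axons. Thymosin beta 4 (TMSB4X) binds actin monomers and keeps them from polymerising. Its brighter spot read 98.4, 269.2, 269.2 and 644.7, so the stimulated value was below the unstimulated one in both compartments. The other spot read 29.62, 113.2, 199.4 and 335.2, in the same order. In stimulated axons these spots were 3.14-fold and 4.39-fold lower than in unstimulated axons, and the mean z ratio was -3.24 over the gene. In cell bodies they were 1.77-fold and 1.24-fold lower, with z ratios of -1.43 and -0.59, and only the first passed the threshold. Axons were lower than cell bodies by 1.34-fold and 1.66-fold without stimulation and by 2.38-fold and 5.84-fold with it, with mean z ratios of -0.76 and -2.29. The value of 29.62 lies under the 95th percentile of the blanks on that array, so its ratios have no exact size. This spot also lies next to a spot of SH2D2A that read 7157, 6258, 7385 and 7057, and its part in the result was not tested.

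Thymosin beta 10 (TMSB10), a close relative, had spots that differed 124-fold in brightness in stimulated axons and went apart. The brighter read 26859, 26651, 25460 and 23519 and ranked between 4 and 11 of all spots on each array. Between both axon arrays it hardly differed, with a z ratio of 0.17. The highest values on those arrays were 33500 (stimulated) and 27700 (unstimulated), and whether so bright a spot can show a change was not tested. The dimmer spot read 216.3, 579.3, 1016 and 927.4, lowest in stimulated axons. It was 3.08-fold lower in stimulated than in unstimulated axons (z ratio -2.65), whereas in cell bodies its z ratio was 0.43. Against stimulated cell bodies, stimulated axons had a z ratio of 1.58 at the brighter spot and -2.01 at the dimmer one, both past the threshold in opposite directions. The fold at the brighter spot was only 1.21. TMSB15A, a thymosin found mainly in developing tissue and tumours, read 54.01, 43.68, 42.8 and 76.41, and none of its z ratios exceeded 0.43 in size.

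**Figure D2:**
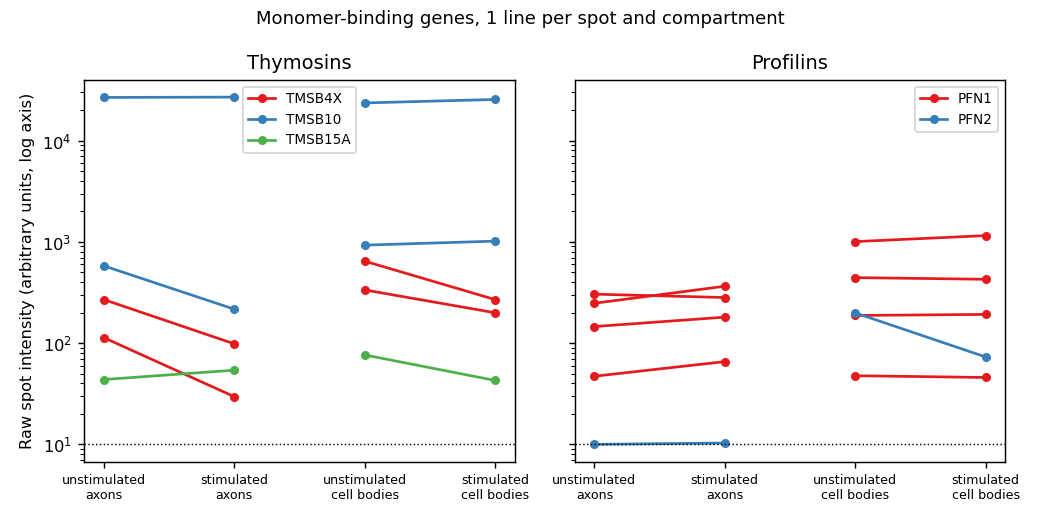
Raw intensity (arbitrary units, log axis) of each thymosin spot (left) and profilin spot (right), with a line joining the unstimulated and the stimulated array of a compartment and the fill-in value of 10 dotted. Both TMSB4X spots and the dimmer TMSB10 spot are lower in stimulated than in unstimulated axons, and the brighter TMSB10 spot is near 26859 in both.

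Profilin 1 (PFN1) delivers monomers to growing filament ends. No PFN1 spot passed the threshold with stimulation, and the mean over its spots was 0.07 in axons, against 0.54 in cell bodies. The first of its 4 spots read 281.8, 304.3, 1152 and 1005, below the cell bodies in axons on both pairs of arrays. It was 3.55-fold lower in stimulated axons than in stimulated cell bodies (z ratio -1.74) and 1.85-fold lower without stimulation (-1.04). The other 3 spots did not share this, with z ratios between -0.05 and 0.23 for stimulated axons against cell bodies.

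Profilin 2 (PFN2) is the profilin most abundant in neurons. Its only spot read 10.31, 10, 72.97 and 198.9, so signal was seen in cell bodies and none above the blanks in axons. The z ratios for axons against cell bodies were -4.06 without and -3.46 with stimulation, and they have no exact size because the axon values are at or beside the fill-in value. In cell bodies the stimulated value was 2.02-fold lower (z ratio -1.46, or -1.23 with robust z-scores, under the threshold). A neighbouring spot of SECISBP2 read 217, 157, 291 and 320, and its part in the PFN2 values was not tested.

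Beta-actin (ACTB) had 7 spots and none passed the threshold in any of the 4 comparisons. The spots differed 265-fold, 244-fold, 594-fold and 596-fold between the brightest and the dimmest on the 4 arrays. The brightest spot read 5510, 4500, 6259 and 6238, close together on all arrays. The next read 3281, 2211, 4453 and 3936, and the dimmest 20.82, 18.44, 10.53 and 10.46. Both axon values of the dimmest spot are under the limit set by the blanks on those arrays (42.5 and 21.9). Its ratios thus have no exact size. It also lies beside a spot of RAB18 that read 142, 96, 122 and 140, whose part was not tested. Mean z ratios were 0.18 in stimulated against unstimulated axons, 0.30 in cell bodies, and, for axons against cell bodies, 0.18 on the unstimulated and 0.09 on the stimulated arrays. Single spots ran from -0.39 to 0.92 in axons and from -0.43 to 1.13 in cell bodies. The -0.39 and the 1.13 are those of the dimmest spot, which also enters the means.

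Gamma-actin (ACTG1), the other cytoplasmic actin, had 9 spots, and here too none passed the threshold with stimulation in either compartment. Between compartments many were lower in axons. Without stimulation 2 of the 9 passed the threshold, and after stimulation 4 did. In each case 5 of the 9 were at least 2-fold lower in axons. The mean log2 ratio over the spots was -0.78 without and -1.06 with stimulation, and the mean z ratios were -0.96 and -1.08. With robust z-scores the latter was -0.44. Among those 4, the brightest read 307.9, 402.2, 1692 and 1614, lower on both axon arrays (4.77-fold with stimulation, 2.24-fold without). Another read 112.5, 152.7, 485.3 and 598.2, again low in both axon samples (3.74-fold and 2.19-fold). The next read 57.7, 58.66, 263.8 and 303, and there the axon samples were nearly equal to each other. The last read 72.68, 50.61, 205.5 and 382.6 and was the lowest of the 9 in unstimulated axons relative to cell bodies, 4.23-fold. The pair of spots that were brightest in axons did not go this way. They read 1143, 1004, 1448 and 1346 for the first, and 1276, 793.5, 1079 and 1035 for the second. Their z ratios for axons against cell bodies lay between 0.26 and 0.84. The second of the pair lies beside a spot of MYL3 that read 15677, 14106, 13518 and 13086, whose part was not tested. Of the 4 spots past the threshold, 3 lie beside a spot at least 3 times as bright (of GPATCH3, H2AX and MS4A1), while the one that read 112.5 in stimulated axons does not.

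ACTB and ACTG1 spots overlapped. Log2 ratios of unstimulated axons against cell bodies ran from -0.51 to 1.66 for ACTB and from -2.08 to 0.45 for ACTG1, and those of the stimulated arrays from -0.43 to 1.19 and from -2.25 to 0.44. The 1.66 and the 1.19 are those of the dimmest ACTB spot, whose axon values are under the limit of the blanks. The next highest ACTB values were 0.63 on the unstimulated and 0.27 on the stimulated arrays. Clones of a gene are not replicates of a condition, so the difference between both actins was not tested. The coding sequences of the actins are nearly the same, and a clone can hold RNA of several of them, so all values of single actins are uncertain as to gene.

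**Figure D3:**
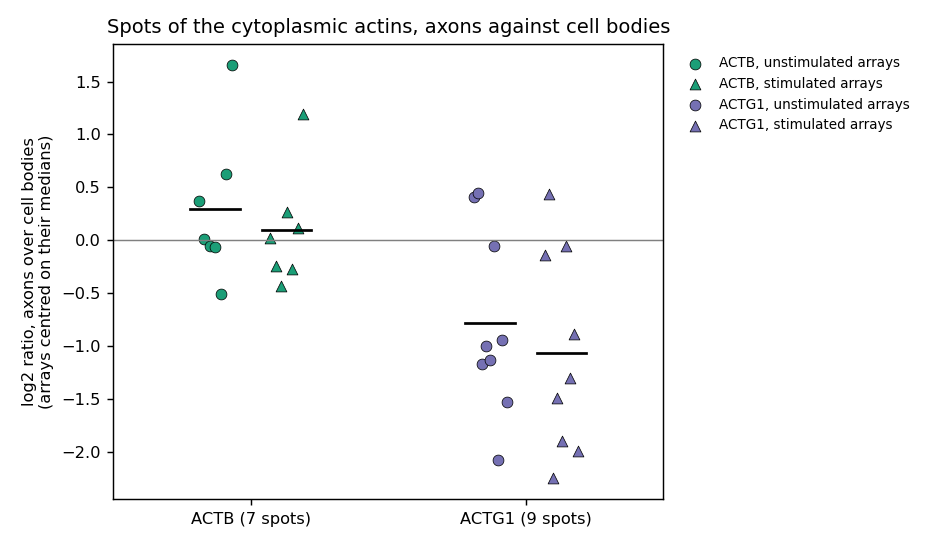
Log2 ratio of axons over cell bodies (arrays centred on their medians) for each of the 7 ACTB and 9 ACTG1 spots, as circles for the unstimulated and triangles for the stimulated arrays. Black lines are means over spots (0.29 and 0.09 for ACTB, -0.78 and -1.06 for ACTG1), with no error bars because clones are not replicates. The ACTB means include the dimmest spot (1.66 and 1.19), whose axon values are under the limit of the blanks and which raises both means.

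Of the muscle actins, ACTA1 (skeletal) read 5545, 3518, 4423 and 4408 and ACTA2 (smooth muscle) read 6437, 4719, 5262 and 5851. Both were brightest in stimulated axons and neither passed the threshold, with z ratios of 1.01 and 0.70 in axons and 1.35 and 1.36 for stimulated axons against stimulated cell bodies. Their axon values did pass it with robust z-scores (1.71 and 1.44), and that of ACTA1 also with normexp (1.61). TAGLN, the only other smooth muscle marker measured (2 of 5 with ACTA2), did not share this. It read 7500, 11300, 8030 and 7970 at its brighter spot, highest in unstimulated axons, with a mean z ratio of -1.0 in axons. The part of such cells in the actin values was not tested. ACTC1 (cardiac) read 84.15, 48.56, 82.43 and 110.6, far dimmer. ACTG2 (enteric smooth muscle) read 70.29, 86.1, 86.87 and 139.8, and its z ratio of -0.99 in axons was the lowest gene value of the actins.

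Actin genes are textbook targets of serum response factor, which binds the CArG box, and the factor works downstream of neuronal activity and of the actin monomer pool. The box was therefore looked for in mouse promoters. Of the 39 genes 38 matched a mouse gene by symbol and 33 had a promoter window of 300 bases in RefSeq (250 before the start; build GRCm38.p6). Actb and Actg2 were among those without a window, so they were not searched. A CArG box, whose pattern is the same on either strand, was in the window of 5 of the 33 genes (15.2%), and in 488 of 27025 genes in all (1.81%). These are shown because the boxes sit in genes of several roles, printed 5′ to 3′ on the gene's strand with the box in capitals.
Actg1 (chr11:120348566-120348595, minus strand, box 90 bases before the start): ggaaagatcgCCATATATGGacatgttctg
Acta1 (chr8:123894829-123894858, minus strand, 73 bases before): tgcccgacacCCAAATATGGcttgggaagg
Actc1 (chr2:114052903-114052932, minus strand, 47 bases before): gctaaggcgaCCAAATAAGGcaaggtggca
Lima1 (chr15:99820177-99820206, minus strand, 47 bases before the start used for its window, which lies inside the annotated gene): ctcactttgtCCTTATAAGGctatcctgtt
Arpc4 (chr6:113377863-113377882, plus strand, 250 bases before, at the window's edge): CCTAATTTGGtgcccaacct
With stimulation none of the 5 genes passed the threshold, although ACTA1 did in axons with robust z-scores (1.71) and normexp (1.61). Their z ratios in axons were -0.25 (ACTG1, mean), 1.01 (ACTA1), 0.74 (ACTC1), 0.36 (LIMA1) and 0.62 (ARPC4). In cell bodies they were -0.04, -0.04, 0.07, 0.06 and 0.19. A match is a stretch of letters, and binding was not measured.

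The Arp2/3 complex starts new filaments as branches on old ones, and 5 of its genes had spots. ARPC2, which forms part of its core, read 12365, 14016, 16886 and 15964 and was the brightest of the group on every array. Its z ratios were -0.22 in axons and -0.19 in cell bodies. As a centred fold it was 1.43-fold higher in stimulated cell bodies, so the direction there depends on the scale. ARPC1B had spots of 53.82, 42.17, 45.06 and 91.96, and of 37.35, 55.48, 45.61 and 80.72. Both raw values were highest in unstimulated cell bodies, the array with the highest median. Scaled, their z ratios for unstimulated axons against cell bodies were -0.58 and 0.06. Only the latter spot was past the threshold, in axons (z ratio -1.51, 1.71-fold lower), at a stimulated value under the blanks' 95th percentile. It lies beside a spot of RPP30 that read 157, 242, 189 and 216, whose part was not tested. ARPC4 read 145.3, 91.02, 93.45 and 117.2, and ARPC5L, a variant of the smallest subunit, had 3 spots between 43.57 and 149. Neither gene had a spot past the threshold, although z ratios of the ARPC5L spots in cell bodies ran from -1.08 to 1.08. ACTR3B, a variant of the Arp3 subunit, had a spot of 27.62, 45.53, 31.09 and 27.33, with a z ratio of -1.78 in axons. It was brightest in unstimulated axons, and the stimulated axon value is again under the blanks' 95th percentile. The other ACTR3B spot was at or under 10 on 3 arrays.

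WAS, which activates Arp2/3 in blood cells, read 87.63, 48.77, 65.43 and 81.83 (z ratios 0.83 in axons and 0.27 in cell bodies). The subunits of the WASH complex, an Arp2/3 activator on endosomes, read 120.6, 99.09, 114.3 and 173 for WASHC2C and 36, 43.04, 45.53 and 98.81 for WASHC3. No spot of these 3 genes passed the threshold. WASHC3 was the lowest, with -1.01 in axons and -0.87 in cell bodies.

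Other actin-related proteins work outside filaments. ACTR6, a chromatin remodelling subunit, read 55.91, 66.65, 150.5 and 190.9, lower on both axon arrays. It was 2.34-fold lower in stimulated axons than in stimulated cell bodies (z ratio -1.65) and 1.6-fold without stimulation (-0.96). The former fell short of the threshold with robust z-scores (-1.27) and after centring by membrane position (-1.10). A neighbouring spot of AOC1 read 894, 760, 1135 and 988. ACTR10, a dynactin subunit, read 105.6, 77.42, 123.3 and 118.8, and ACTRT3, known from testis, read 64.31, 52.59, 66.16 and 105.6. Neither had a z ratio past 0.72 in size.

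Cofilins and destrin sever filaments and pull monomers off them. Cofilin 1 (CFL1), the main form outside muscle, had 4 spots, the brightest of which read 215, 176.5, 238.6 and 269.5. All 4 arrays were similar at that spot, and the gene's mean z ratios were 0.04 in axons and -0.14 in cell bodies, with no spot past the threshold. CFL2, the muscle form, read 82.94, 111.7, 79.12 and 128.1 (z ratio -1.19 in axons, -0.33 in cell bodies). With normexp its axon value passed the threshold (-1.45). Destrin (DSTN) read 80.33, 54.16, 74.12 and 58.46, higher with stimulation in both compartments. Its z ratios, 0.38 in axons and 1.26 in cell bodies, stayed under the threshold, and it lies beside a spot of S100A4 that read 20789, 17852, 16952 and 16671.

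Capping protein closes the fast-growing filament end and is made of an alpha and a beta subunit. CAPZA2, an alpha subunit, read 25.97, 10, 18.06 and 60.46. Stimulated axons were above unstimulated ones (z ratio 1.53) while stimulated cell bodies were below unstimulated ones (-1.64, 2.48-fold), the only member past the threshold in opposite directions in both compartments. The unstimulated axon value is the fill-in value and the stimulated one is under the blanks' 95th percentile, so the axon ratio has no exact size. Neither call held throughout: the axon value was 0.68 with quantile normalization, 1.18 with loess and 0.65 with normexp, and that of cell bodies was -1.04 with robust z-scores and -1.21 with quantile normalization. The same holds for unstimulated axons against cell bodies (-2.25, and -0.97 with normexp). The other subunits did not do this. CAPZA1 read 78.54, 70.89, 57.78 and 129.2 (z ratios -0.28 in axons and -0.98 in cell bodies), and CAPZB, the beta subunit, had mean z ratios of -0.24 and -0.09 over 2 spots (93.72, 82.38, 110.3 and 161 for the brighter).

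Tropomyosins wrap along filaments. TPM2 read 7621, 6217, 10053 and 9511, TPM1 924.2, 619, 956.5 and 1001, and TPM4 277.4, 238.1, 284.3 and 333.4. Each kept a similar level on all arrays, and their z ratios lay between -0.09 and 0.76 over the 4 comparisons. The 0.76 is that of TPM2 for stimulated axons against cell bodies, where its centred fold was 1.15-fold lower, so its direction depends on the scale. The TPM1 spot lies beside one of EEF1G that read 9859, 7109, 9222 and 9423, whose part was not tested. Actinins crosslink filaments. ACTN1 had a spot of 196.1, 196.1, 473.6 and 461.3, 2.1-fold lower in stimulated axons than in stimulated cell bodies with a z ratio of -1.13, and another of 131.6, 165.3, 161.5 and 236.5. ACTN4 read 172.2, 98.51, 333.9 and 323.5, 1.84-fold lower in unstimulated axons than in cell bodies (-1.13) and 1.68-fold with stimulation (-0.87). Both actinins were thus lower in axons at their brightest spot, and neither passed the threshold. The ACTN4 spot lies beside one of RBM14 that read 1716, 1323, 1959 and 1847, whose part was not tested. With normexp, ACTN4 reached 1.49 in stimulated against unstimulated axons. LIMA1, which binds filament sides and slows their turnover, read 70.97, 48.06, 57.72 and 80.2.

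Coronins bind filaments and help to dismantle branches. CORO1C, the most widely expressed, read 5319, 3697, 5219 and 4781. It passed the threshold in no comparison (z ratios 0.80 in axons and 0.11 in cell bodies). With robust z-scores its axon value did pass it (1.5). CORO1B read 38.22, 24.47, 28.54 and 40.09. CORO2A had spots that disagreed. The first read 154.8, 126.4, 169.3 and 199.5, with z ratios of 0.02 in axons and 0.22 in cell bodies. The second read 103.5, 112.6, 10 and 33.24, higher in axons than in cell bodies and at the fill-in value in stimulated cell bodies. Both axon values were below the array means (161 and 133 as intensities), so this spot was not bright in axons. Its z ratios were -1.51 in cell bodies and 2.54 and 3.04 for axons against cell bodies. This spot lies beside one of CCDC28B that read 7844, 7308, 9443 and 9235, and without it the gene's z ratio for stimulated axons against cell bodies was -0.13 in place of 1.46 (0.01 over spots above 10 on both arrays).

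The rule matches outside the actin system were TPMT, which methylates thiopurine drugs, and CFLAR, an inhibitor of death receptor signalling. TPMT spots read 70.33, 117.4, 98.43 and 90.05, and 47.44, 87.31, 113.1 and 125.5. Both were lowest in stimulated axons, with z ratios of -1.70 and -1.97 there and 0.88 and 0.43 in cell bodies. CFLAR read 95.57, 118.6, 73.68 and 101.9 (-0.99 and 0.03). Without these 3 spots 5 of 66 (7.58%) were lower in stimulated axons.

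Set against each other by gene, 13 members had z ratios above 0 in both compartments, 14 were below 0 in both, 7 were below 0 in axons and above in cell bodies, and 5 the reverse. TMSB4X was the gene farthest from 0 in axons, and CAPZA2 in cell bodies. Spots that lie beside one at least 3 times as bright on at least 3 arrays made up 25 of the 69 (36.2%, against 40% of named spots), and without them 5, 1, 0 and 6 spots were past the threshold in the 4 comparisons in place of 8, 4, 5 and 13.

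**Figure D4:**
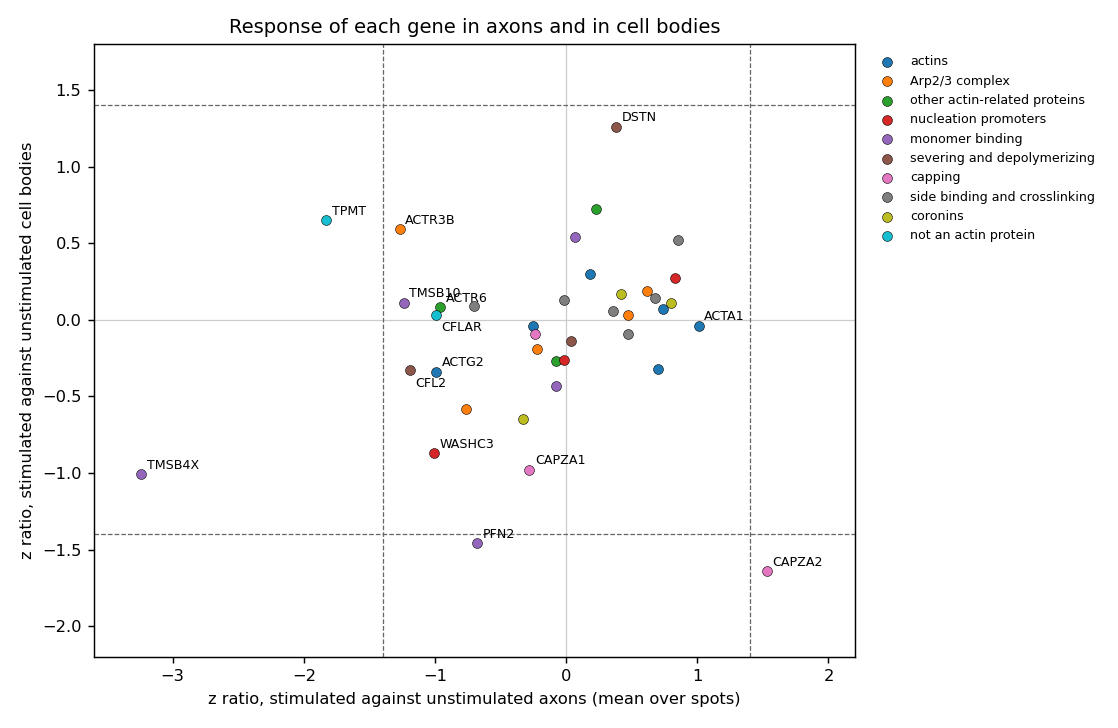
Mean z ratio over the spots of each gene for stimulated against unstimulated axons (x axis) and cell bodies (y axis), coloured by role, with dashed lines at the threshold of 1.4 in size. TMSB4X lies farthest left (-3.24 and -1.01), CAPZA2 stands alone at lower right (1.53 and -1.64), and most genes lie near 0 on both axes.

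A list of 82 further actin regulators (small GTPases and kinases, formins, WAVE partners, membrane linkers, bundlers and other cappers) had 39 genes measured with 63 spots. In stimulated axons 0 of these spots were lower and 0 higher, against the backgrounds of 5.6% and 3.34%. In stimulated cell bodies 2 were lower (3.17%, background 3.39%), both of RHOA, a GTPase that drives contractility, and 1 was higher (1.59%, background 1.49%), of CYFIP1, a WAVE partner. Each of these 2 genes has values at or under 10, so no exact size is given. Among genes above 10 on all arrays, the highest z ratios in axons were those of MSN, a membrane linker (1.08), and PXN, an adhesion adaptor (0.81). The lowest were VIL1, which severs and bundles filaments in microvilli (-1.28), and SSH2, a cofilin phosphatase (-1.02). In cell bodies the highest were LCP1, a bundler of blood cells (0.87), and ADD1, a spectrin linker (0.49). ENAH, which speeds filament growth (-1.15), and TMOD3, which caps slow-growing ends (-1.11), were lowest. The axon median over the 39 genes was -0.01, and that in cell bodies was 0.10. In axons against cell bodies, 3 spots of the list were lower (4.76%, background 3.41%) and 0 higher (background 3.6%) without stimulation. With it, 4 were lower (6.35%, background 5.74%) and 2 higher (3.17%, background 2.92%), so these shares lay near those of the whole array.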

How the data were processed

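RNA of 4 pooled samples was hybridised to 4 nylon cDNA arrays. Per the study's methods, the authors amplified and radiolabelled the RNA (with 33P, per the labels) and read the membranes on a phosphor imager. The deposited table used here holds raw spot intensity values on a linear scale, with no normalization between arrays. The image software's version and its handling of background are not given in the sources used here. Another deposited table holds 4 columns whose names do not all match the title of 1 sample alone, and it was not used. Gene symbols came from the platform annotation, which names 1 gene for 8496 spots, several for 21 and none for 1083.

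From the intensities, z-scores of log10 intensity over all 9600 spots, their differences and the z ratio were computed in Python 3.11.15 with pandas 2.3.3 and numpy 2.4.6, after the calculation was tested on simulated data. Values of several spots were averaged to give that of a gene. Quantile, loess (span 0.3) and normexp (offset 50) alternatives used limma 3.58.1 in R 4.3.3. The number of arrays, 1 per group, limits the precision, and no test was run. The methods give pooled RNA from separate experiments in other amounts than the labels, and the labels were followed.

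Every member gene was counted. Genes named with values on all arrays were those past the threshold as a mean or at a spot above the array mean, a fixed list of 36 actin genes (24 measured), the highest and lowest of each role, and the 2 highest and 2 lowest of the further regulators. The remaining members are also given. Members and lists were chosen with earlier results of these data known. Promoters are from RefSeq (GRCm38.p6).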

Additional observations from a re-analysis of the deposited data

Results flagged for a closer look

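CAPZA2 was past the threshold in opposite directions in the 2 compartments, with a z ratio of 1.53 in stimulated against unstimulated axons and -1.64 in stimulated against unstimulated cell bodies. The difference between these values was not tested, since each group is 1 array. The spot read 10, the fill-in value, in unstimulated axons, and it lies beside a DBN1 spot that read 413 in stimulated axons, 340 in unstimulated axons, 579 in stimulated cell bodies and 544 in unstimulated cell bodies. The part of this neighbour in the result was not tested. The axon value was under the threshold with quantile normalization (0.68), loess (1.18) and normexp (0.65), and that of cell bodies with robust z-scores (-1.04) and quantile normalization (-1.21).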

How the results depend on the processing

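No paired analysis was possible because each group is 1 array and no test was run. The other deposited table was not run as an alternative, since its column names do not all match 1 sample. Counts are of member spots past the threshold, in the order axons, cell bodies, unstimulated compartments and stimulated compartments, and were 8, 4, 5 and 13. Under the alternatives the share over all named spots was not counted. The counts below thus show how far the calls depend on the processing, and not how the members differ from the array. With robust z-scores the stimulated compartments gave 14, of which 10 were higher in axons. Left undivided by the SD, the z-score differences gave 0, 0, 1 and 0. Centred log2 ratios past 1 gave 5 in axons and 12 between unstimulated compartments. Quantile, loess and membrane position adjustments gave 9, 8 and 8 between unstimulated compartments. Normexp gave 14 in the first 3 comparisons (6 higher and 8 lower in cell bodies). Spots above 10 on both arrays gave 13 in cell bodies (7 higher and 6 lower) and 13 between unstimulated compartments, and spots above the array mean gave 4 in axons and 5 between stimulated compartments. A threshold of 2 gave 3 in axons, 0 in cell bodies and 7 between stimulated compartments, and one of 1.3 gave 10 between unstimulated compartments. With 1 value per gene there were 4 in axons, 3 between unstimulated and 6 between stimulated compartments. Without spots beside a brighter spot there were 5, 1, 0 and 6, and without TMSB4X and TMSB10, an alternative chosen after seeing the data, 5 in axons.

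The median z ratio over members (-0.02, 0.03, -0.07 and -0.05) became 0.20, -0.12, 0.12 and 0.13 with robust z-scores, and 0.31 in axons, -0.25 in cell bodies and 0.10 between stimulated compartments for spots above the array mean. As centred log2 ratios it was 0.09 in axons, 0.13 between unstimulated and 0.21 between stimulated compartments. Quantile and loess gave 0.05 and 0.09 between unstimulated compartments, normexp -0.11 in cell bodies and 0.21 between stimulated compartments, and spots above 10 gave 0.10 and 0.19 between unstimulated and stimulated compartments. The sign of these medians thus depends on the scaling. The z ratio of CORO2A for stimulated axons against cell bodies was -0.13 without its spot beside a brighter one, and -0.13 from its brightest spot alone, the latter an alternative chosen after seeing the data. For TMSB4X in axons the value was below 0 under every setting tried, from -4.22 (spots above the array mean) to -0.85. The -0.85 is the z-score difference left undivided, which has another unit, so the threshold does not apply to it. Of 1726 single-gene values under the alternatives, 76 moved by more than the spread between clones and 2 changed sign after a call. The cause was not tested.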
